A study of Rattus norvegicus with 11 samples.

Results

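Ferroptosis and glutathione synthesis genes were followed in the striatum of rats 3 days after intracerebral hemorrhage (ICH). The set held 10 of the 30560 genes of the deposited table, taken by gene symbol alone: Slc7a11, Gclc, Gclm, Gss, Chac1, Gpx4, Aifm2, Acsl4, Lpcat3 and Alox15. All were adult male Sprague-Dawley rats, and bulk poly(A) RNA of the ipsilateral striatum was sequenced with 1 library per rat. Common hemorrhage (IC, 3 rats) was produced by 0.2 U of bacterial collagenase VII-S in 1.0 µL, and severe hemorrhage (IS, 3 rats) by 0.6 U in 3.0 µL. In severe hemorrhage with hematoma aspiration (IS-HA, 3 rats) the IS dose was followed at 6 h by aspiration of 150 µL. The Normal group held 2 rats, which had neither an injection nor an aspiration, so that collagenase, its vehicle and the needle cannot be told apart in any comparison with Normal. IC and IS differed in both the dose and the volume injected.

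Ferroptosis is a form of cell death in which iron drives the peroxidation of polyunsaturated fatty acids in membrane phospholipids. Its main brake is Gpx4, a selenoenzyme that reduces lipid hydroperoxides at the expense of glutathione. Cystine taken up by Slc7a11, the light chain of system xc-, supplies the cysteine for glutathione, which Gclc with its modifier Gclm and then Gss assemble. Blood in the brain releases hemoglobin, and heme oxygenase frees iron from its heme, which is why this form of cell death is studied after ICH.

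Counts assigned to genes summed to between 6701301 and 18817645 per rat, and 3 counts, taken as the floor of detection, stood at 0.159 to 0.448 CPM, the count scaled to a common library size. IS-HA replicate 2 was the shallowest library and stood apart in how its counts depended on gene length. Among the genes tested, the median log2 CPM of the shortest 20% of genes minus that of the longest 20%, each gene taken relative to its mean over the rats, was 0.998 in this library. It was -0.478 and -0.854 in Normal, -0.237, -0.177 and 0.0589 in IC, 0.229, 0.456 and 0.5 in IS, and -0.2 and -0.188 in the other IS-HA rats. The trend therefore ran with the groups, and results are given with a correction for it, and without IS-HA replicate 2, where they changed. Markers of striatal neurons were present in every rat but lower after hemorrhage, in TPM, the deposited length-scaled transcript abundance. The 10 markers of striatal medium spiny neurons include Drd1, Drd2 and Ppp1r1b. They summed to 6405 and 6823 TPM in Normal and to 2824 to 5584 TPM in IC. In IS the sum was 1376 to 3625 TPM and in IS-HA 1383 to 3076 TPM. The 12 markers of microglia and macrophages summed to 281 and 403 TPM in Normal and to between 2525 and 5782 TPM in the 3 hemorrhage groups. In bulk tissue, fewer cells of a type and less RNA per cell cannot be told apart.

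Levels are given as the deposited TPM, which scale each gene by nearly the same length in all rats. In genes with 10 or more counts, the log2 ratio of count to TPM varied by at most 0.038 beyond the rat's own scale. TPM therefore keep the length trend of each library. Log2 fold changes, with the standard error (SE), and adjusted p-values are from edgeR's quasi-likelihood test on the counts, with all 4 groups in the fit and p adjusted by Benjamini-Hochberg across 15742 genes, and a gene was called at an adjusted p under 0.05. All 10 members passed the filter on low counts. The p-values measure the spread between rats. The 3 comparisons with Normal share the same 2 Normal rats. Ranges of rats and their overlap are given in TPM. The share of all genes whose rats did not overlap was not counted in any comparison, so nothing is read from such separations about the members.

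**Figure D1:**
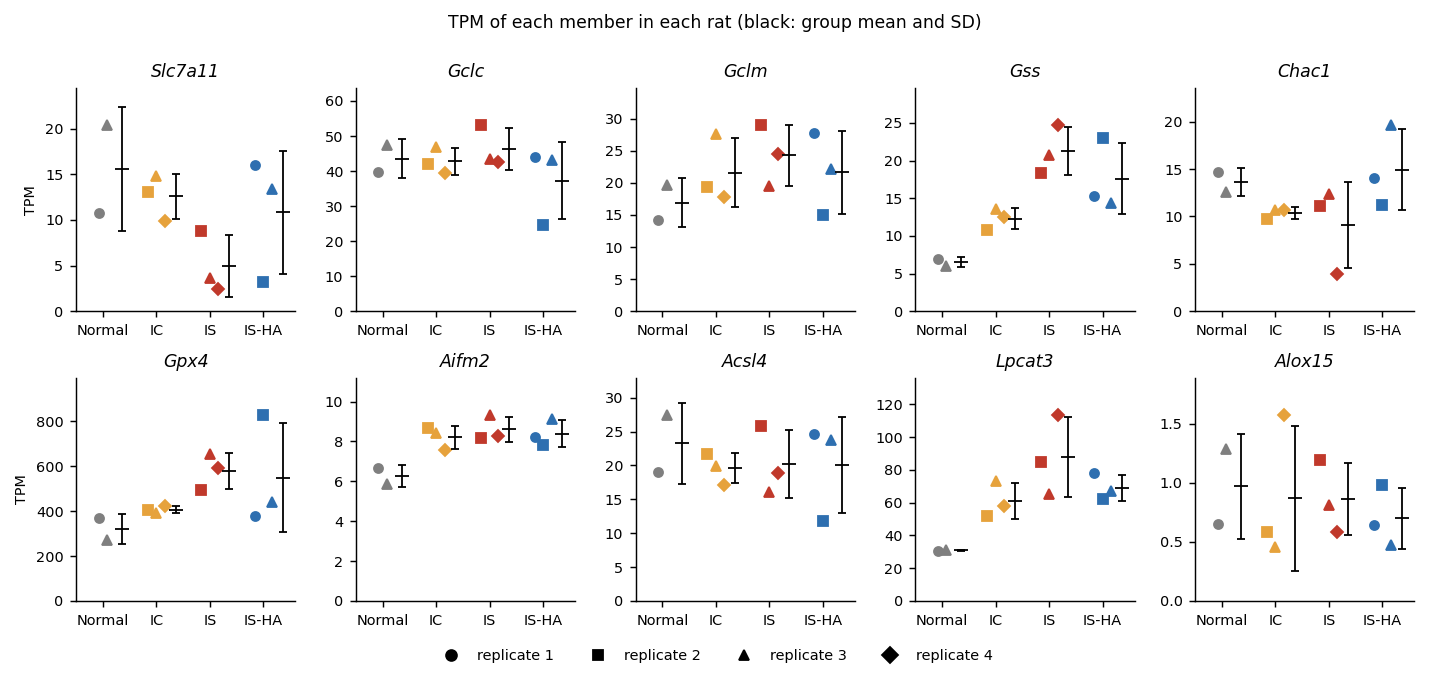
TPM (vertical axis, from 0, a separate scale per gene) of the 10 members in each of the 11 rats, with colour for the group, symbol for the replicate number and black bars for the group mean and SD. In TPM, Gss, Lpcat3, Gpx4 and Aifm2 lay above Normal in all 9 hemorrhage rats, and Slc7a11 was lowest in IS replicates 3 and 4 and IS-HA replicate 2. The share of all genes above Normal in these 9 rats was not counted.

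The order of the levels was led throughout by Gpx4. Gpx4 averaged 320.4 TPM in Normal, while the next member, Gclc, averaged 43.59 TPM, and Alox15 was last in every group at a mean of 0.9703 TPM or less. Lpcat3 stood at rank 3 in Normal at 31.02 TPM and at rank 2 in IC, IS and IS-HA. Slc7a11 stood at rank 6 in Normal at 15.56 TPM and rank 9 in IS at 4.983 TPM, and Gss stood at rank 8 in Normal at 6.528 TPM and rank 5 in IS at 21.3 TPM. Several neighbours in the order overlapped in their rats, such as Gclm (14.27 and 19.6 TPM) and Slc7a11 (10.76 and 20.36 TPM) in Normal.

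Against Normal, the RNA of Gss and Lpcat3 was raised in IS and IS-HA, that of Lpcat3 in IC, and that of Slc7a11 was lowered in IS. IC against Normal had 1 member called, Lpcat3, which was higher, where 13% of all genes tested were called higher and 4.64% lower. IS against Normal had 3 members called, 2 higher and 1 lower, where 24.8% of all genes were called higher and 24.2% lower. IS-HA against Normal had 2 members called, both higher, where 19.5% of all genes were called higher and 12.1% lower. With so many genes called, these counts of members are not far from the background. The median log2 fold change of the 10 members was 0.10 in IC, 0.29 in IS and 0.21 in IS-HA against Normal, beside 0.00, 0.02 and 0.06 over all genes tested. Scaling by library size alone moved the median of all genes to 0.14, 0.15 and 0.18 and the calls of all genes from 2040 higher and 730 lower to 2626 and 295 in IC, from 3908 and 3802 to 4594 and 2851 in IS, and from 3067 and 1898 to 3815 and 1104 in IS-HA.

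**Figure D2:**
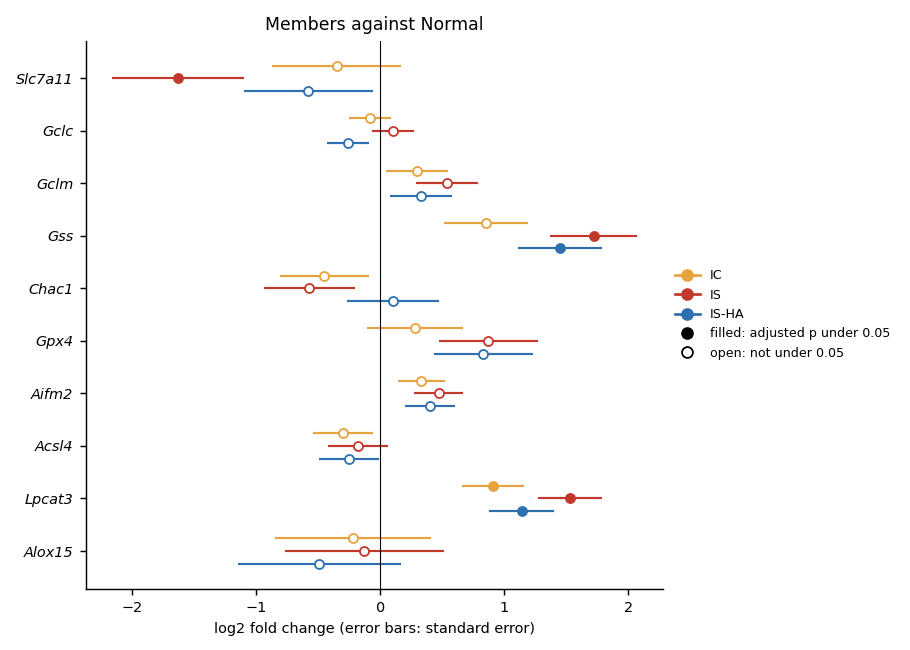
Log2 fold change (horizontal axis) of the 10 members in IC, IS and IS-HA against Normal, with standard errors as bars and filled points for an adjusted p under 0.05. Filled points are Lpcat3 in all 3 groups, Gss in IS and IS-HA, and Slc7a11 in IS, which is the one on the lower side.

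Slc7a11 (ENSRNOG00000010210) exchanges glutamate for cystine across the plasma membrane and is much studied in astrocytes. Its level was 10.76 and 20.36 TPM in Normal, 13.08, 14.8 and 9.902 TPM in IC replicates 2, 3 and 4, 8.825, 3.648 and 2.475 TPM in IS replicates 2, 3 and 4, and 15.98, 3.244 and 13.36 TPM in IS-HA replicates 1, 2 and 3. All 3 IS rats were below both Normal rats and all IC rats, whereas among the IS-HA rats replicate 2 lay within IS, replicate 3 within IC and replicate 1 above all IC rats. The IS level fell by 1.63 on the log2 scale from Normal (SE 0.53, adjusted p = 0.0259). In IC the log2 fold change was -0.35 (SE 0.52) and in IS-HA -0.58 (SE 0.52), with adjusted p = 0.668 and 0.41, and without IS-HA replicate 2 the IS-HA value was -0.20 (SE 0.42). The IS call rested on single rats and on the scaling: the adjusted p was 0.197 without Normal replicate 3, 0.0817 without IS replicate 3, 0.0812 without IS replicate 4, 0.0504 with library size alone and 0.0557 by limma on log2(TPM + 1). With a term for the replicate number in the edgeR fit it was 0.242. The 2 lowest IS rats rested on 85 and 40 counts, and IS-HA replicate 2 on 50 counts.

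The 12 astrocyte markers moved partly with Slc7a11. Their mean log2 level, relative to all rats, was 0.11 and 0.05 in Normal, 0.34, 0.29 and 0.30 in IC, -0.04, -0.18 and -1.02 in IS, and 0.28, -0.26 and 0.13 in IS-HA, and their summed level ran from 4251 to 7898 TPM in IS and from 4879 to 5200 TPM in Normal. By mean log2 level the markers were lowest in the same 3 rats as Slc7a11, but by summed level they were not: IS replicate 3 (7898 TPM) and IS-HA replicate 2 (6186 TPM) lay above both Normal rats. Of the 12 markers, 1 was called higher and 1 lower in IS against Normal. None of these markers was at 0 in every rat. Neuron markers, by mean log2 level, were lowest in the same 3 rats too, so this match was not particular to astrocytes. They stood at -0.53 and -1.59 in IS replicates 3 and 4 and at -0.52 in IS-HA replicate 2. The part of either cell type in the Slc7a11 difference was not tested. Slc3a2, the heavy chain that carries Slc7a11 to the membrane and also partners other transporters, went the other way, from 143 ± 7.53 TPM in Normal (SD, n = 2) to 301 ± 19.6 TPM in IS (SD, n = 3), a log2 fold change of 1.08 (SE 0.18, adjusted p = 0.000965).

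Gss (ENSRNOG00000018964), glutathione synthetase, joins glycine to gamma-glutamylcysteine in the last step of glutathione synthesis. It was at 6.99 and 6.065 TPM in Normal, 10.75, 13.54 and 12.58 TPM in IC, 18.42, 20.79 and 24.69 TPM in IS, and 15.34, 22.98 and 14.41 TPM in IS-HA. In TPM the ranges of Normal, IC and IS did not overlap, and IS-HA lay above IC and overlapped IS. In log2 CPM, IS-HA replicate 3 (3.74) did not lie above IC replicate 4 (3.75). Gss rose by 1.72 on the log2 scale in IS (SE 0.35, adjusted p = 0.00252) and by 1.45 in IS-HA (SE 0.34, adjusted p = 0.0102). In IC the log2 fold change was 0.85 (SE 0.34, adjusted p = 0.102), and it was called without IS-HA replicate 2 (0.85, adjusted p = 0.0169), when 33.3% of all genes were called. The IS-HA call was lost without Normal replicate 3 (adjusted p = 0.107) and when Normal and IS-HA alone were fitted (adjusted p = 0.0618). With a term for the replicate number in the fit, the calls of Gss in IS (adjusted p = 0.0572) and IS-HA (adjusted p = 0.0571) were lost.

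The first, rate-limiting step of glutathione synthesis did not show the Gss pattern. Gclc (ENSRNOG00000006302), the catalytic subunit of glutamate-cysteine ligase, was at 39.65 and 47.53 TPM in Normal, 41.9, 47.01 and 39.32 TPM in IC, 53.07, 43.34 and 42.51 TPM in IS, and 43.97, 24.69 and 43.17 TPM in IS-HA. All groups overlapped, and the lowest value was that of IS-HA replicate 2. The log2 fold changes of Gclc against Normal were -0.08 (SE 0.17), 0.10 (SE 0.17) and -0.26 (SE 0.17) in IC, IS and IS-HA, none called. Gclm (ENSRNOG00000013409), the modifier subunit that raises the efficiency of the enzyme, ran from 14.27 to 19.6 TPM in Normal, 17.82 to 27.66 TPM in IC, 19.53 to 28.96 TPM in IS and 14.96 to 27.8 TPM in IS-HA. Its log2 fold change in IS was 0.54 (SE 0.25, adjusted p = 0.0993), and its group ranges overlapped. The ratio of Gclc to Gss, in TPM, was 5.67 and 7.84 in Normal, 3.9, 3.47 and 3.13 in IC, 2.88, 2.08 and 1.72 in IS, and 2.87, 1.07 and 3 in IS-HA. The ratio was below both Normal rats in every hemorrhage rat and below all IC rats in every IS and IS-HA rat. The share of other gene pairs with such a separation was not counted.

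Chac1 (ENSRNOG00000014387) degrades glutathione in the cytosol and is a target of the ATF4 stress pathway. It was at 14.68 and 12.55 TPM in Normal, 9.689, 10.71 and 10.7 TPM in IC, 11.13, 12.33 and 3.912 TPM in IS, and 14.04, 11.19 and 19.62 TPM in IS-HA. In TPM, IC and IS lay below Normal, with IS replicate 4, at 22 counts, lowest of all. In log2 CPM, IS replicate 3 (3.19) lay above Normal replicate 3 (3.13). The log2 fold changes against Normal were -0.45 (SE 0.36), -0.57 (SE 0.37) and 0.10 (SE 0.37), none called. Without IS replicate 4 the IS value was -0.25 (SE 0.27, adjusted p = 0.485).

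Promoter sequences are shown for the glutathione genes because NRF2, the master regulator of antioxidant genes, and ATF4 with C/EBP partners bind short defined motifs. The RefSeq promoter table of build GRCr8, which is not the build of the counts, held 9 of the 10 members with 11 start sites, and Alox15 had no entry. In the 250 bases before the start site, both strands were searched for the antioxidant response element TGACNNNGC, present in 10.1% of 33469 promoters, and for the C/EBP-ATF element TGATGNAA, present in 3.4%. The letters of these motifs share no common core beyond TGA. Among the members the first was found only before Gclm and the second only before Chac1. Capitals mark the match, which in both lies on the opposite strand of the sequence as printed. The Gclm window is chr2:213031938-213031996 (plus strand) and the Chac1 window chr3:126795939-126795996 (plus strand).
Gclm: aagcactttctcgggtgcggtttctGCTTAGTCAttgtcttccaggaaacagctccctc
Chac1: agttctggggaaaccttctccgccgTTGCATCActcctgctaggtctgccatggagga

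The whole 250-base windows before the start sites of the 3 members called in IS against Normal are shown, since neither motif has a match in them. They lie at chr2:136668265-136668514 (minus strand) for Slc7a11, chr3:164538307-164538556 (minus strand) for Gss and chr4:159154440-159154689 (plus strand) for Lpcat3, each printed 5′ to 3′ along its gene. No match says only that these letters are not in this window.
Slc7a11: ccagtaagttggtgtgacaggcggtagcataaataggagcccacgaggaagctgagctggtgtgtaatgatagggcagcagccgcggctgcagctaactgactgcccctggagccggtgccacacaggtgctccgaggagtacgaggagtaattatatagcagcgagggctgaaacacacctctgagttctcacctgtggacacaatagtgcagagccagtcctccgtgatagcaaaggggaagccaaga
Gss: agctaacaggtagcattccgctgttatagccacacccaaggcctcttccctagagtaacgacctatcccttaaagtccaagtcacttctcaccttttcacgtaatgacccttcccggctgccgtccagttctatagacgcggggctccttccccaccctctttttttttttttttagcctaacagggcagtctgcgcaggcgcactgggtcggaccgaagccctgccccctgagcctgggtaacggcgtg
Lpcat3: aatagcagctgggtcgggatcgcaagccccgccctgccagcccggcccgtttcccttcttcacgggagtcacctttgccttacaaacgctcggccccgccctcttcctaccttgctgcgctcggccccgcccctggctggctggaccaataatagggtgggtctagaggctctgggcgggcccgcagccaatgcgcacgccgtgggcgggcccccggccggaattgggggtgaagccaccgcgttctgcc

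Gpx4 (ENSRNOG00000013604) was at 367.6 and 273.3 TPM in Normal, 404.7, 390.9 and 423.8 TPM in IC, 496.3, 653 and 590.5 TPM in IS, and 377, 829.1 and 442.4 TPM in IS-HA. In TPM, IC lay above Normal and IS above IC in every rat, and IS-HA replicate 2 was the highest of all. In log2 CPM, Normal replicate 1 (7.65) lay above IC replicates 2 (7.62) and 3 (7.54) and IS-HA replicate 1 (7.49). The log2 fold change of Gpx4 against Normal was 0.28 (SE 0.39) in IC, 0.87 (SE 0.40, adjusted p = 0.0944) in IS and 0.83 (SE 0.40, adjusted p = 0.131) in IS-HA. It was not called, but without IS-HA replicate 2 the IS value of 0.87 (SE 0.22) had an adjusted p of 0.00606, when 59.5% of all genes were called. Without the same rat the IS-HA value was 0.21 (SE 0.23, adjusted p = 0.536). RefSeq lists processed copies of Gpx4 in the rat, so reads shared with them would make its counts uncertain. Gpx4 has a short gene model, at the 8.73 percentile of length among the genes tested, and after correction for gene length its IS value was 0.18 (SE 0.27, adjusted p = 0.621) and its IS-HA value 0.11 (SE 0.27, adjusted p = 0.784). Aifm2 (ENSRNOG00000059445), known as FSP1, regenerates reduced coenzyme Q and restrains lipid peroxidation without glutathione. It was at 6.664 and 5.857 TPM in Normal and between 7.555 and 9.328 TPM in all 9 hemorrhage rats, above both Normal rats. Its log2 fold changes against Normal were 0.33 (SE 0.19), 0.47 (SE 0.20, adjusted p = 0.0666) and 0.40 (SE 0.20) in IC, IS and IS-HA. Aifm2 in IS was called without IS-HA replicate 2 (adjusted p = 0.034) and by DESeq2 (adjusted p = 0.0433).

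The genes that make phospholipids peroxidizable or oxidize them were divided. Lpcat3 (ENSRNOG00000012269) inserts polyunsaturated fatty acids into phospholipids. It was at 30.74 and 31.29 TPM in Normal, 51.92, 72.96 and 57.73 TPM in IC, 84.68, 65.53 and 113.6 TPM in IS, and 77.96, 62.53 and 67.24 TPM in IS-HA. Every hemorrhage rat lay above both Normal rats, and IC, IS and IS-HA overlapped. Lpcat3 rose by 0.91 on the log2 scale in IC (SE 0.25, adjusted p = 0.0316), by 1.53 in IS (SE 0.26, adjusted p = 0.00103) and by 1.14 in IS-HA (SE 0.26, adjusted p = 0.0079). The IC call was lost without Normal replicate 1, Normal replicate 3, IC replicate 3 or IC replicate 4, with adjusted p between 0.083 and 0.22, and the IS-HA call was lost without Normal replicate 3 (adjusted p = 0.0801).

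Acsl4 (ENSRNOG00000019180) activates arachidonic acid for that insertion, and it overlapped between all groups. It was at 19.04 and 27.45 TPM in Normal, between 17.18 and 21.62 TPM in IC, between 16.05 and 25.84 TPM in IS, and between 11.83 and 24.63 TPM in IS-HA, with IS-HA replicate 2 lowest. Its log2 fold change in IS was -0.18 (SE 0.24, adjusted p = 0.542). It has a long gene model, at the 94.9 percentile, and with correction for gene length the value was 0.38 (SE 0.17, adjusted p = 0.074), on the other side of 0. Alox15 (ENSRNOG00000019183), a lipoxygenase that oxidizes polyunsaturated fatty acids, was near the floor of detection, with 5 to 23 counts per rat and 0.457 to 1.577 TPM. Its log2 fold changes had SE between 0.63 and 0.66 against Normal, so that only a difference well above that size could be called at this depth.

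The correction for gene length removed from each rat the trend of log2 CPM on gene length, and it was added after the data were seen. It moved the median of all genes from 0.00 to -0.15 in IC, from 0.02 to -0.09 in IS and from 0.06 to -0.10 in IS-HA against Normal, and changed the split of all calls in IC to 1813 higher and 1731 lower and in IS-HA to 2478 higher and 2836 lower. With it 0 members were called in IC (Lpcat3 0.60, SE 0.24, adjusted p = 0.095), where 22.5% of all genes were called. In IS 4 members were called, where 48.8% of all genes were: Gss at 1.40, Lpcat3 at 1.15, Slc7a11 at -1.45 and Chac1 at -1.09 (SE 0.37, adjusted p = 0.0291). The correction was not run without IS replicate 4, the rat with the lowest Chac1. In IS-HA 3 were called, where 33.8% of all genes were: Gss at 1.11, Lpcat3 at 0.77 and Gclc at -0.41 (SE 0.14, adjusted p = 0.0474). The calls of Gss, Lpcat3 and Slc7a11 in IS therefore stood with and without the correction, whereas Gpx4, Gclm and Acsl4, at the ends of the length scale, moved most toward or across 0 and Chac1 moved further below Normal. The share of the trend in each gene's own difference was not tested.

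**Figure D3:**
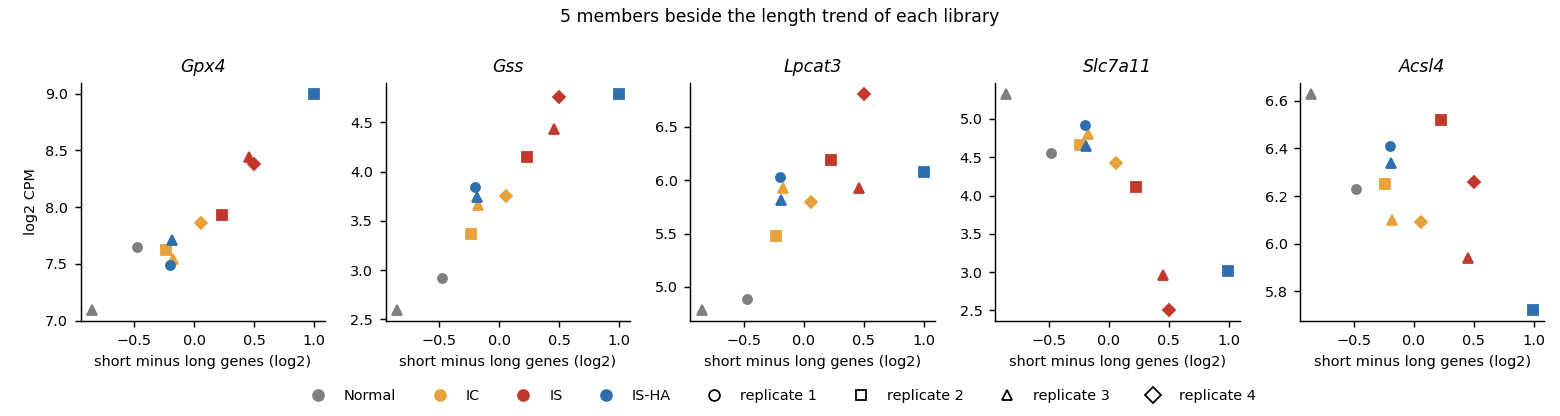
Log2 CPM (vertical axis) of Gpx4, Gss, Lpcat3, Slc7a11 and Acsl4 in the 11 rats against the length trend of the library, which is the median of short genes minus that of long genes (horizontal axis, log2), with colour for the group and symbol for the replicate. IS-HA replicate 2 is farthest to the right at 0.998, with the highest Gpx4 and the lowest Acsl4.

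**Figure D4:**
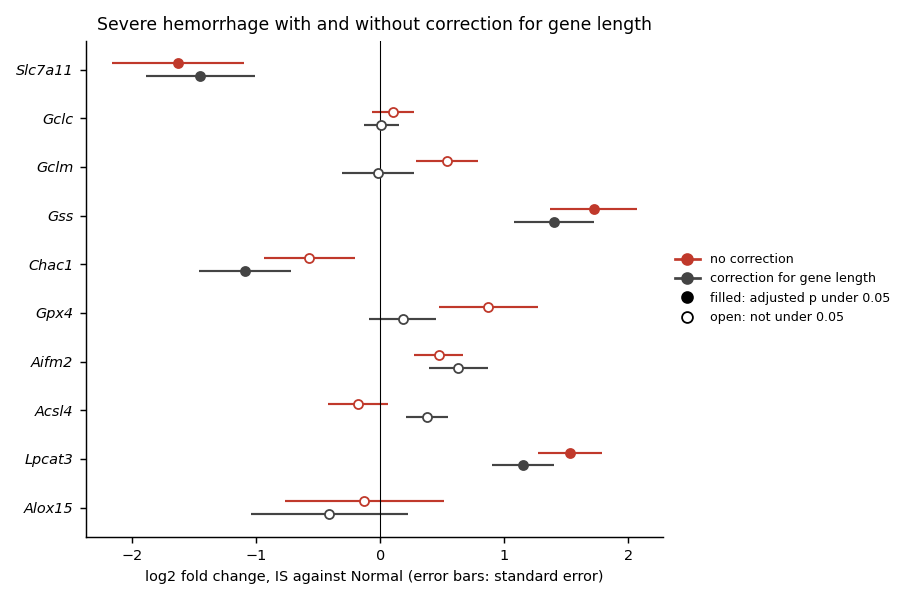
Log2 fold change in IS against Normal (horizontal axis) of the 10 members without (red) and with (grey) the correction for gene length, with standard errors as bars and filled points for an adjusted p under 0.05. Gpx4 moved from 0.87 to 0.18 and Chac1 from -0.57 to -1.09, while Gss, Lpcat3 and Slc7a11 were called in both.

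Severe against common hemorrhage compared a larger with a smaller bleed, and the bleed cannot be told apart from the higher dose and larger volume injected. IS against IC had 0 members called by edgeR, where 0% of all genes were, and 3 members at an unadjusted p under 0.05, where 22.2% of all genes were. These were Gss at 0.87 (SE 0.29, adjusted p = 0.163), Lpcat3 at 0.61 (SE 0.22, adjusted p = 0.173) and Slc7a11 at -1.28 (SE 0.49, adjusted p = 0.184). DESeq2 called 0 members, where it called 6.19% of all genes, with adjusted p of 0.0638, 0.0923 and 0.0896 for the same genes. The IS and IC ranges did not overlap in TPM for Gss, Slc7a11 and Gpx4, and they overlapped for the other members, Lpcat3 included. The share of all genes without overlap was not counted, so nothing is read from this about the members. Without IS-HA replicate 2, which is in neither group but adds to the shared estimate of spread, Gss (0.87, SE 0.19, adjusted p = 0.027) and Slc7a11 (-1.27, SE 0.36, adjusted p = 0.0439) were called, where 14.1% of all genes were. Gclc (0.18, SE 0.15), Gclm (0.24, SE 0.22), Aifm2 (0.14, SE 0.17), Acsl4 (0.11, SE 0.21) and Chac1 (-0.12, SE 0.34) had unadjusted p of 0.252 or more.

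Aspiration was compared with severe hemorrhage left in place. The IS-HA rats were also anesthetized again and had a catheter passed through the hematoma. These steps cannot be told apart from the removal of blood. IS-HA against IS had 0 members called, where 0.00635% of all genes were, and 1 member, Gclc, at an unadjusted p under 0.05, where 8.94% of all genes were. DESeq2 called 0 members, where it called 0.451% of all genes. Gclc differed by -0.36 (SE 0.15, adjusted p = 0.55), and without IS-HA replicate 2 by -0.23 (SE 0.12, adjusted p = 0.212). Slc7a11 had the largest difference, 1.06 (SE 0.49, adjusted p = 0.561). Its IS-HA replicates 1 and 3, at 15.98 and 13.36 TPM, were above all IS rats, and replicate 2, at 3.244 TPM, was within them. Gss differed by -0.28 (SE 0.29), Gpx4 by -0.04 (SE 0.35), Lpcat3 by -0.38 (SE 0.22) and Chac1 by 0.67 (SE 0.34). Without IS-HA replicate 2, 0 members were called, where 4.37% of all genes were, and the differences were 1.43 (SE 0.39, adjusted p = 0.0593) for Slc7a11, -0.66 (SE 0.22, adjusted p = 0.0809) for Gpx4 and -0.68 (SE 0.22, adjusted p = 0.08) for Gss. A difference between aspirated and severe hemorrhage in these members was therefore not shown by the test, and neither was its absence.

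IS-HA against IC had 0 members called, where 0% of all genes were, and 0 members at an unadjusted p under 0.05, where 4.97% of all genes were. DESeq2 also called 0 members and 0.133% of all genes. The largest differences were Gss at 0.60 (SE 0.29), Gpx4 at 0.55 (SE 0.35) and Chac1 at 0.55 (SE 0.33), with adjusted p of 0.841 each. Without IS-HA replicate 2 the values were 0.20 (SE 0.22) for Gss, -0.07 (SE 0.21) for Gpx4 and 0.61 (SE 0.35) for Chac1, so that the first and second of these rested on that rat. The IS-HA rats lay above all IC rats in TPM for Gss and Chac1 and overlapped IC for the other 8 members. Here too the share of all genes without overlap was not counted.

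**Figure D5:**
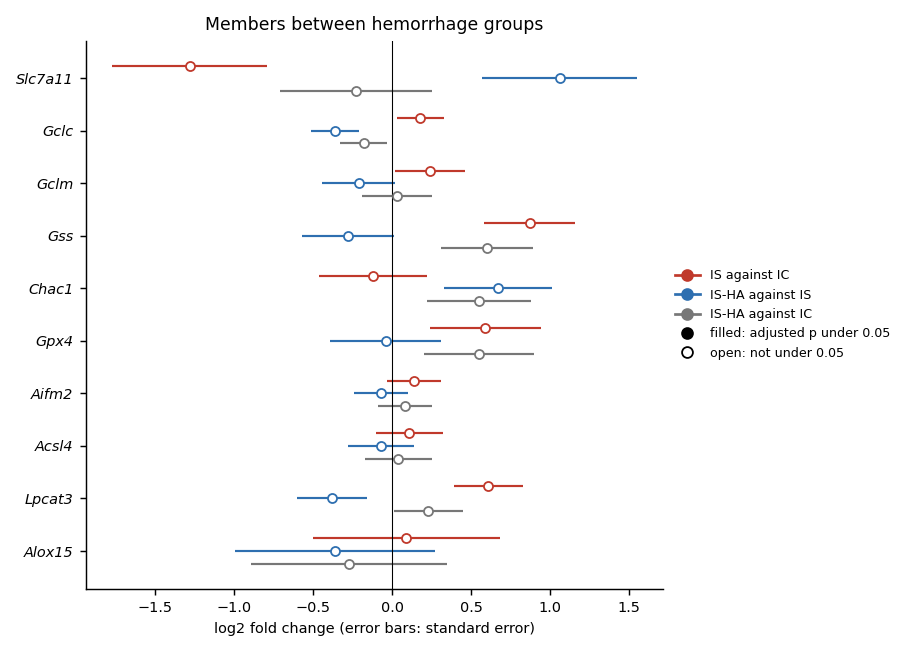
Log2 fold change (horizontal axis) of the 10 members in IS against IC, IS-HA against IS and IS-HA against IC, with standard errors as bars and open points for an adjusted p of 0.05 or more. No point is filled, and Slc7a11 has the lowest value in IS against IC (-1.28) and the highest in IS-HA against IS (1.06).

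Around the members, the lists of related genes were read by their counts in IS against Normal, where 24.8% of all genes were called higher and 24.2% lower. With correction for gene length, 3460 of all 15742 genes were called higher there and 4221 lower. Of 27 tested genes of glutathione turnover and cysteine supply, 14 rose and 6 fell, with a median log2 fold change of 0.92 beside 0.02 over all genes. With correction for gene length 13 rose and 7 fell, and the median was 0.60 beside -0.09 over all genes. Anpep, an aminopeptidase, went from 3.14 ± 0.199 TPM (SD, n = 2) to 106 ± 49.1 TPM (SD, n = 3), and Oplah, which recovers glutamate from 5-oxoproline, from 10.6 ± 0.507 to 59.7 ± 9.33 TPM. Dpep2 and Ggt5, which cleave extracellular glutathione products, rose by 3.72 (SE 0.56) and 2.54 (SE 0.34) on the log2 scale. In IC the count was 9 higher and 2 lower, where 13% of all genes were called higher and 4.64% lower. In IS-HA it was 12 and 3, where 19.5% of all genes were called higher and 12.1% lower.

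Of 26 tested glutathione peroxidases and transferases, 11 rose and 1 fell, with a median of 0.45. With correction for gene length 8 rose and 5 fell, and the median was 0.06. Mgst1, a microsomal glutathione transferase, rose by 3.99 (SE 0.54) and Mgst2 by 5.98 (SE 1.22), and both remained called with the correction at 3.31 and 5.11. Gpx2, at 1.03 ± 0.905 TPM in Normal (SD, n = 2) and 13.9 ± 7.74 TPM in IS (SD, n = 3), varied widely between rats. Ptgr1, which reduces lipid aldehydes, rose by 4.00 (SE 0.55).

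Of 29 tested genes of membrane lipid remodelling and lipid peroxidation, 9 rose and 9 fell, with and without the correction, which is near the shares of all genes. The median was -0.17, and -0.25 with the correction. Mboat1, an acyltransferase, rose by 5.21 (SE 0.55), Alox5ap, the partner of 5-lipoxygenase, by 3.73 (SE 0.46), Alox12 by 3.05 (SE 0.45) and the phospholipase Pla2g4a by 1.97 (SE 0.24). Of 32 tested genes of quinone, pterin and selenoprotein protection, 10 rose and 3 fell, with a median of 0.20, and with correction for gene length 7 rose and 5 fell, with a median of -0.06. Gch1, the first enzyme of tetrahydrobiopterin synthesis, rose by 3.23 (SE 0.61), the quinone reductase Nqo1 by 2.23 (SE 0.35) and thioredoxin, Txn1, by 2.59 (SE 0.47).

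The regulators of the members were also read. Nfe2l2, which encodes NRF2, rose from 24.7 ± 4.25 TPM in Normal (SD, n = 2) to 74.1 ± 6.95 TPM in IS (SD, n = 3), by 1.59 on the log2 scale (SE 0.21, adjusted p = 0.000274). Keap1, its inhibitor, was at 0.05 (SE 0.20, adjusted p = 0.855) and Bach1, a repressor at the same motif, at -0.36 (SE 0.51, adjusted p = 0.577). Of the 18 tested genes of the NRF2 list, 12 rose and 0 fell in IS, with a median of 1.30, and 13 rose and 2 fell with correction for gene length, with a median of 1.24. Hmox1, heme oxygenase 1, went from 7.55 ± 2.53 TPM in Normal (SD, n = 2) to 1025 ± 356 in IC, 2987 ± 881 in IS and 1205 ± 281 TPM in IS-HA (SD, n = 3 each), and Osgin1, Maff and Abcc3 rose by 3.42, 3.71 and 2.79. Gclc, Gclm and Slc7a11, textbook targets of NRF2, were not called higher in any comparison.

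Atf4 was at 211 ± 11.4 TPM in Normal (SD, n = 2), 215 ± 22.4 in IC, 332 ± 11.4 in IS and 316 ± 29.9 TPM in IS-HA (SD, n = 3 each). It rose by 0.67 in IS (SE 0.20, adjusted p = 0.017), and with correction for gene length the value was 0.11 (adjusted p = 0.585). Of 19 tested genes of the ATF4 stress list, 10 rose and 3 fell, with a median of 0.67, and with correction for gene length 9 rose and 3 fell, with a median of 0.36. Trib3 rose by 5.72 (SE 0.80), Atf3 by 4.87 (SE 0.53), Cebpb by 4.13 (SE 0.59) and Aldh1l2 by 2.41 (SE 0.49), whereas their fellow ATF4 targets Chac1 and Slc7a11 had negative values.

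Of 21 tested genes of iron handling and ferroptosis marks, 10 rose and 1 fell, with a median of 0.43, and with correction for gene length 9 rose and 1 fell, with a median of 0.46. The ferritin chains rose together: Fth1 went from 3747 ± 1313 TPM in Normal (SD, n = 2) to 22593 ± 4887 TPM in IS (SD, n = 3) and Ftl1 from 223 ± 38.7 to 3429 ± 1567 TPM. Both have near-identical processed copies in the genome, so how the counting split their reads is uncertain. Cp, the ferroxidase ceruloplasmin, rose by 3.09 (SE 0.34) and Hspb1, a heat shock protein, by 5.85 (SE 0.71). In IS against IC, IS-HA against IS and IS-HA against IC, 0 genes of any of these 7 lists were called by edgeR. At an unadjusted p under 0.05, where 22.2% of all genes were, IS against IC had 10 of 27 turnover genes, 6 of 26 peroxidases and transferases, 11 of 29 membrane lipid genes, 5 of 32 quinone, pterin and selenoprotein genes, 7 of 19 ATF4 genes, 8 of 18 NRF2 genes and 3 of 21 iron genes. In IS-HA against IS, where 8.94% of all genes were, the counts for the same lists in that order were 6, 1, 2, 1, 2, 5 and 1.

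Immune cell markers rose beside these lists. In IS against Normal 11 of 12 microglia and macrophage markers and 6 of 6 tested neutrophil markers were called higher, and 10 of 11 neuron markers were called lower. The neutrophil markers summed to 6.42 and 6.78 TPM in Normal and to between 267 and 1110 TPM after hemorrhage. The part of these cells in the rise of Gss, Lpcat3 and the listed genes was not tested.

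Over the 11 rats the members differed in which genes they resembled, as a description by Pearson correlation of log2 CPM across rats that share group, depth and length trend. Gss and Lpcat3 were alike (r = 0.906), Gss and Gpx4 too (r = 0.876), and Slc7a11 ran opposite to Gpx4 (r = -0.916) and to Gss (r = -0.863). Gclc was not close to Gss (r = -0.244), and Gclm reached r = 0.482 with Gclc. The genes most like Gpx4 included Ocel1 (r = 0.993) and Lsm4 (r = 0.99), those most like Gss Mrto4 (r = 0.995), Crip1 (r = 0.994) and Nubp2 (r = 0.993), and those most like Lpcat3 Sdcbp (r = 0.991), Spcs2 (r = 0.987) and Osbpl11 (r = 0.986). Slc7a11 was most like Bmpr1b (r = 0.977), Folh1 (r = 0.976) and Mid1 (r = 0.973). Gclm was most like C5h1orf87 (r = 0.962) and Itga4 (r = 0.949), Chac1 like Ecel1 (r = 0.937) and Ephx2 (r = 0.917), Acsl4 like Macir (r = 0.944) and Rasa1 (r = 0.942), and Aifm2 like Lman2l (r = 0.964). Gclc (highest r = 0.882, Nploc4) and Alox15 (highest r = 0.827, Ppa2) had the weakest nearest neighbours.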

How the data were processed

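Ipsilateral striatum of 11 rats was sequenced as paired-end reads of 150 bases from stranded poly(A) libraries. The submitters' processing notes name fastp 0.20.0, HISAT2 2.1.0, SAMtools 1.9, FastQC 0.11.9, featureCounts, DESeq2 and the build mRatBN7.2, without roles or the strand setting. Deposited by the authors were raw read counts of each gene, and TPM of the same genes, for every rat. Both were used as deposited, and 0 value columns were unmatched. Counts were filtered (filterByExpr), scaled by TMM and tested in edgeR 4.0.16 (R 4.3.3) as one fit over 4 groups. SE is the absolute log2 fold change over the square root of F. DESeq2 1.42.0, limma 3.58.1 and the other settings of the closing section were alternatives. Gene lengths came from the ratio of counts to TPM. The edgeR, DESeq2 and limma fits were tested on simulated data for IS against IC. The length correction was tested on simulated data with no changed gene, so its effect on true changes was not tested. The other settings were not tested in this way. The members, gene lists and tests were chosen with earlier results of these data known. List genes named are up to 4 per list with the largest change among those called in IS against Normal, plus Slc3a2, Nfe2l2, Atf4, Keap1 and Bach1, and 1 gene of this rule is not reported here. For likeness, up to 3 genes with the highest correlation per member were named. The paper gives 3 rats per group, whereas Normal holds 2 here. Python 3.11.15 with matplotlib 3.10.9 made the plots.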

Additional observations from a re-analysis of the deposited data

How the results depend on the processing

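Of 1191 values of members under alternatives, 1110 kept their direction and side of the threshold, 17 lost a call, 16 gained one and 48 changed sign, and 0 of the 6 called results changed sign. The 23 results with a change of sign had an absolute log2 fold change of 0.55 or less. With the 10 counts minimum, no filter or DESeq2's size factors, no count of called members moved by over 1.5 times. Members called in IC against Normal were 2 with library size alone, limma on log2(TPM + 1) or only the 2 groups fitted, and 0 with the gene-length correction or an added absolute log2 fold change of 1, against the 1 reported. IS-HA against Normal had 1 with only the 2 groups fitted. Leaving out each rat gave 0 to 2 members in IC, 2 to 5 in IS and 0 to 3 in IS-HA against Normal, 0 to 2 in IS against IC, and 0 in both other comparisons. The count of 5, and the count of 2 in IS against IC, came without IS-HA replicate 2.

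Same-numbered rats are different animals. Their deviations from the group means had mean correlations of 0.0336 for IS and IC, -0.282 for IS-HA and IS, and -0.158 for IS-HA and IC. Single same-numbered pairs ran from -0.475 (replicate 2 of IS-HA and IS) to 0.356 (replicate 2 of IS and IC). With so few pairs, these values cannot decide whether the numbers pair the rats. With the replicate block, a term for the replicate number, members called against Normal were 0 in IC, 1 in IS and 1 in IS-HA. The calls lost were Lpcat3 in IC (adjusted p = 0.204), Gss (0.0572) and Slc7a11 (0.242) in IS, and Gss (0.0571) in IS-HA. The signs changed for Gpx4 (-0.09), Slc7a11 (0.06) and Gclc (0.02) in IC against Normal. They also changed for Gpx4 (0.02) and Alox15 (0.10) in IS-HA against IS, and for Alox15 (0.35) and Gclm (-0.03) in IS-HA against IC.

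With the gene-length correction the sign changed for Gpx4 (-0.19) and Gclm (-0.12) in IC, Acsl4 (0.38) and Gclm (-0.02) in IS, and Acsl4 (0.10), Gclm (-0.17) and Chac1 (-0.37) in IS-HA against Normal, and for Gclm (-0.05) in IS-HA against IC. With library size alone it changed for Gclc in IC (0.06) and Alox15 in IS (0.00) against Normal, and with limma for Acsl4 (-0.03) and Gclm (-0.02) in IS-HA against IC. Leaving out 1 rat at a time gave Slc7a11 -0.69 to 0.09 and Alox15 -1.0 to 0.27 in IC, Acsl4 -0.37 to 0.03 and Alox15 -0.49 to 0.34 in IS, and Chac1 -0.09 to 0.28 in IS-HA against Normal. In IS against IC it gave Acsl4 -0.04 to 0.26, Alox15 -0.28 to 0.87 and Chac1 -0.41 to 0.20. In IS-HA against IS it gave Gpx4 -0.66 to 0.23, Acsl4 -0.24 to 0.11 and Aifm2 -0.15 to 0.00. In IS-HA against IC it gave Gpx4 -0.07 to 0.81, Slc7a11 -0.57 to 0.15, Acsl4 -0.08 to 0.23, Alox15 -0.65 to 0.51 and Gclm -0.13 to 0.20. The causes of these changes were not tested. The order of group means was the same in CPM as in TPM for 10 of 10 members, but single rats changed places, as for Gpx4. Alox15, with 5 to 23 counts, is limited by depth, and Normal by its 2 rats.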
